A study of Homo sapiens with 4 samples.

Results

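Metallothioneins are small cytosolic proteins rich in cysteine that bind zinc and copper and also take up toxic metals such as cadmium. In humans their genes sit together on the long arm of chromosome 16, and the transcription factor MTF1 switches them on through short metal response elements in their promoters when free zinc rises. Glucocorticoids and oxidative stress also raise several of them. In the normal prostate, an organ that holds much zinc, they buffer the metal.

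The members are the 6 metallothionein genes MT2A, MT1E, MT1M, MT1F, MT1G and MT1X. They were chosen by gene symbol, or where a table gives the row no symbol by the overlap of its locus with a stated hg19 span, taken as the overlap divided by the union and required to reach 0.4. This finds 4 of the 6 in every table (MT2A, MT1E, MT1M and MT1G) and MT1F in 1 table, out of 52289 loci joined across the tables. The rule was written with results of the same comparison in view, so the values below are a description and carry no test. MT2A was found by its symbol in 3 tables and by an overlap of 0.693 in CRYM library 1, the lowest value inside the threshold. The locus of MT1F is named in CRYM library 1, and the unnamed row at the same position in the other 3 tables reached 0.399, just outside. The single locus over MT1X has no symbol in any table and reached 0.302. Values of these 2 loci are given under their gene names with that limit.

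The cells were LNCaP, an established human prostate cancer line from a lymph node metastasis, at passage 22. The 2 groups were cells transiently transfected with a plasmid expressing CRYM and cells given the matching empty vector, with 2 libraries each. Each transfection used 2500 ng of plasmid and 12 µL of lipid reagent, in medium holding 10% serum, and lasted 48 h in both groups. CRYM is the gene of mu-crystallin, which holds thyroid hormone in the cytosol. The study compared expression between the groups in 1 cell line. The sources used here do not give the share of cells that took up plasmid. RNA came from whole cultures, so fewer cells with a transcript and less RNA per cell cannot be told apart, and the labels do not say that the 2 libraries of a group came from separate cultures.

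The tables hold FPKM, the fragments per kilobase of transcript scaled to the mapped fragments. Each value comes with its own interval. The locus taken as CRYM, from its place between ANKS4B and the next named locus, had 65.3 and 72.5 FPKM in the CRYM libraries and 1.17 and 0.977 FPKM in the empty vector libraries. Relative to empty vector library 1, sequencing depth was 0.842 in CRYM library 1, 1.07 in CRYM library 2 and 1.15 in empty vector library 2. Of 11 luminal prostate markers 2 have a name in the joined tables, and their summed FPKM was 157.1 and 162.2 in CRYM cells and 215.3 and 212.2 in empty vector cells. HOXB13 had 110.3 and 114.1 FPKM in CRYM cells and 128.4 and 127.7 FPKM in empty vector cells, and SPDEF 46.8 and 48.0 FPKM in CRYM cells and 86.9 and 84.5 FPKM in empty vector cells. By fragments implied by the deposited intervals, at equal depth, the CRYM to empty vector ratio was 1.12 for HOXB13, against 0.876 by FPKM. For SPDEF it was 0.985, against 0.553 by FPKM. In implied fragments the groups overlapped at both genes. The part of these 2 markers in the differences given here was not tested. Of the markers of other cell types, HLA-DRA stood at 1.95 and 1.56 FPKM in CRYM cells and 2.40 and 2.29 FPKM in empty vector cells, CLDN5 at 0.136 to 0.275 and INSM1 at 0 to 0.0138, and no basal or fibroblast marker has a name there. CRYM cells had higher FPKM at 15.7% of the 10091 tested loci and lower FPKM at 17.7% (Benjamini-Hochberg adjusted p under 0.05 from limma). With any 1 library left out, limma called 0 loci, with 3627 to 3815 loci at an unadjusted p under 0.05.

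Promoter sequence was given by RefSeq (GRCh38.p14) for 2 of the 6 members, MT2A and MT1X, and both are shown. MT1F and MT1G had no sequence there, and a link between cores and the difference between groups was not tested. Each run is the 250 bases before the annotated start, on the plus strand of chromosome 16, and capitals mark the core of the metal response element, spelled TGCACNC or TGCGCNC and searched on both strands, with overlapping matches counted once. MT2A lies at chr16:56608334-56608583 and MT1X at chr16:56682220-56682469.
MT2A: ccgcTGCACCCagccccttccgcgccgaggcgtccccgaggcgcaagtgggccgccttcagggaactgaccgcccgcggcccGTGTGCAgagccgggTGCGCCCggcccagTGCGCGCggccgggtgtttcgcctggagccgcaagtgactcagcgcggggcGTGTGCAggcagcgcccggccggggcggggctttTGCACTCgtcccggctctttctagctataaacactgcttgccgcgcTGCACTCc
MT1X: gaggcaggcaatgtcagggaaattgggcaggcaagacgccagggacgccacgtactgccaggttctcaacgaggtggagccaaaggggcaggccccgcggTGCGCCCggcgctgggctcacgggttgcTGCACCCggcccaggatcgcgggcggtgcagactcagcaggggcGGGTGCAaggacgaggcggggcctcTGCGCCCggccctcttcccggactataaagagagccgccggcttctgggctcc

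The MT2A promoter held 7 cores, 5 on its own strand and 2 on the opposite one, and the MT1X promoter 4, of which 1 was on the opposite strand. Of 35116 promoters of this length, 24.8% held at least 1 core, 0.208% at least 4 and 0.0228% at least 7. A TATAAA box was present in both, as in 6.80% of all promoters. MT1H, whose transcript was at 0 or 0.0496 FPKM in every library, had 8 cores in the same window. A match of letters is not a measured binding site.

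MT2A, a metallothionein widely expressed in human tissues, was the highest member here. Its locus (ENSG00000125148, hg19 chromosome 16, 56642111 to 56643409) had 163.1 and 174.9 FPKM in the CRYM libraries, against 124.5 and 135.1 FPKM in the empty vector libraries. Both CRYM libraries lay above both empty vector libraries. The deposited intervals were 155.0 to 171.2 and 166.8 to 183.1 in CRYM cells and 117.9 to 131.0 and 128.3 to 141.8 in empty vector cells, so that none of a CRYM library met one of an empty vector library. The means were 169.0 ± 8.35 FPKM in CRYM cells and 129.8 ± 7.49 FPKM in empty vector cells (SD, n = 2 each), a 1.30-fold difference and 0.38 on the log2(FPKM + 1) scale. Only 4.86% of tested loci had a higher mean FPKM than MT2A.

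MT1G showed the same order. Its locus (ENSG00000125144, hg19 chromosome 16, 56700643 to 56701977) had 42.2 and 41.6 FPKM in the CRYM libraries and 30.8 and 25.5 FPKM in the empty vector libraries. The CRYM libraries nearly coincided, while the empty vector libraries lay further apart and both below them. The means were 41.9 ± 0.396 FPKM in CRYM cells and 28.2 ± 3.79 FPKM in empty vector cells (SD, n = 2 each), a 1.49-fold difference and 0.56 on the log2 scale. The deposited intervals of the groups did not meet, at 37.9 to 46.5 and 37.8 to 45.5 in CRYM cells against 27.4 to 34.3 and 22.7 to 28.3 in empty vector cells.

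The largest relative difference among the members above 1 FPKM was at the MT1F locus (ENSG00000198417, hg19 chromosome 16, 56691606 to 56694610). It had 9.68 and 10.33 FPKM in the CRYM libraries, against 5.27 and 4.77 FPKM in the empty vector libraries. Its means were 10.0 ± 0.461 FPKM in CRYM cells and 5.02 ± 0.349 FPKM in empty vector cells (SD, n = 2 each), a 1.99-fold difference and 0.87 on the log2 scale. The intervals of CRYM libraries, 8.28 to 11.1 and 9.07 to 11.6, lay above those of empty vector libraries, 4.30 to 6.23 and 3.93 to 5.62. The locus is 3005 bp long, the length of MT1F in GENCODE v29.

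The MT1X locus did not follow them. It lies at hg19 chromosome 16, 56716336 to 56721964, and had 32.2 and 30.8 FPKM in the CRYM libraries and 34.2 and 34.0 FPKM in the empty vector libraries. The CRYM libraries were both lower, with means of 31.5 ± 1.02 FPKM in CRYM cells and 34.1 ± 0.125 FPKM in empty vector cells (SD, n = 2 each), a ratio of 0.924 and a log2 difference of -0.11. The deposited intervals overlapped between groups, at 29.2 to 35.3 and 28.1 to 33.5 in CRYM cells and 31.1 to 37.2 and 31.1 to 36.9 in empty vector cells. At 5629 bp the locus is longer than the 1773 bp of MT1X in GENCODE v29, where a processed transcript of 5338 bp named AC026461.1 overlaps MT1X on the same strand. The files use that name for another locus of the cluster, which was at 0 in all 4 libraries. The part of each transcript in the FPKM of this locus was not tested.

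MT1E and MT1M were near the floor. MT1E (ENSG00000169715, hg19 chromosome 16, 56659387 to 56661024) had 0.0967 and 0.0706 FPKM in the CRYM libraries and 0.661 and 0.212 FPKM in the empty vector libraries. Both CRYM values were below both empty vector values, but the deposited intervals reach 0 in 3 of 4 libraries and imply 0.447 and 0.584 fragments in CRYM cells and 6.39 and 2.41 in empty vector cells. MT1M (ENSG00000205364, hg19 chromosome 16, 56666145 to 56667898) had 0.336 and 0 FPKM in the CRYM libraries and 0 and 0.0512 FPKM in the empty vector libraries, with overlapping groups and under 1 implied fragment in every library. Differences at this level were not detectable at this depth, and no fold is given for either gene.

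**Figure D1:**
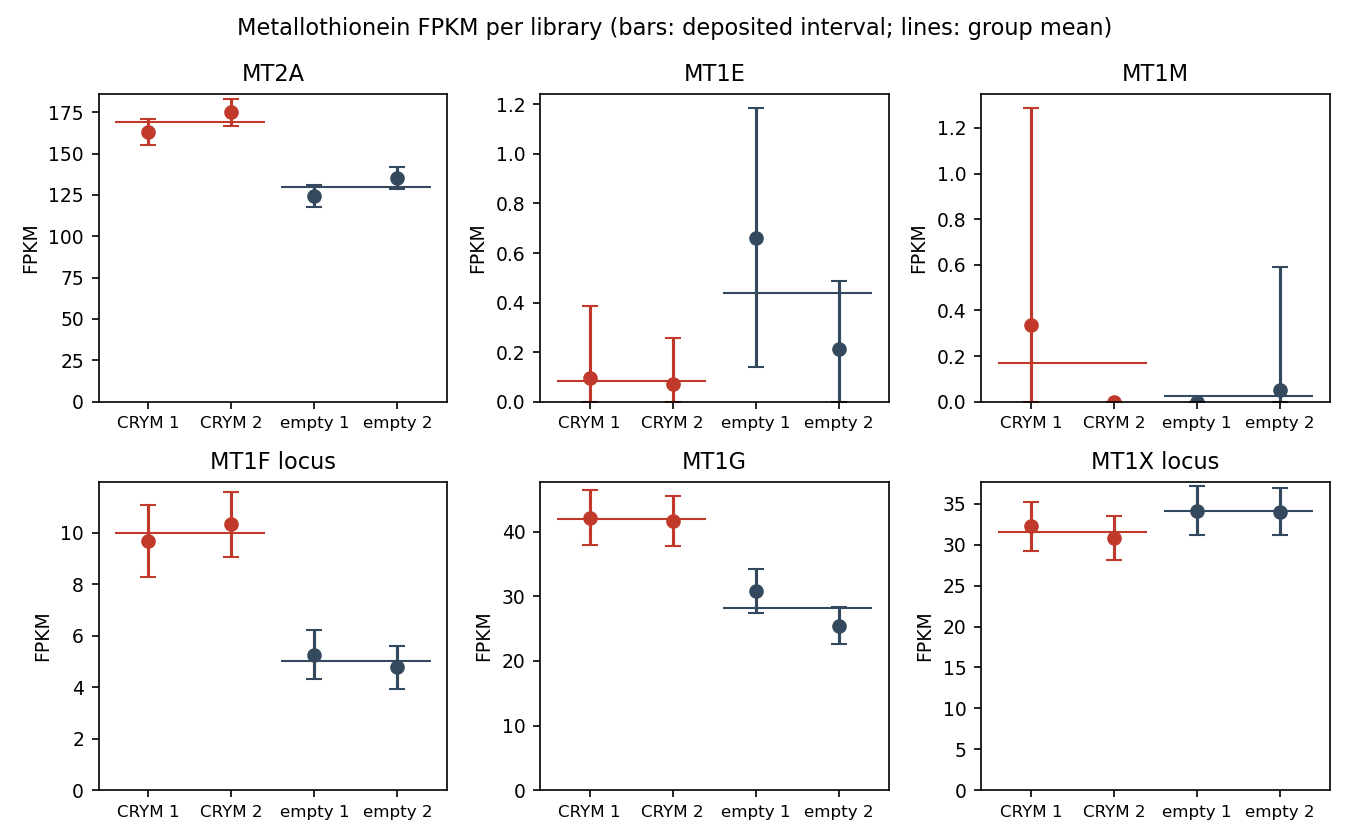
FPKM (vertical axis, from 0) of the 6 metallothionein loci in the CRYM libraries (red, left) and the empty vector libraries (dark blue, right), with points for single libraries, bars for the deposited bounds and lines for group means. MT2A, MT1G and MT1F sit higher in both CRYM libraries with intervals that do not meet those of the empty vector libraries. MT1X sits slightly lower with overlapping intervals, and MT1E and MT1M lie under 1 FPKM. On rescaling to the same total FPKM MT2A and MT1G turn lower, while under quantile normalization and median rescaling they stay higher.

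In all, both CRYM libraries were above both empty vector libraries at 3 of the 6 loci and below both at 2. Among all tested loci 37.0% were above and 35.3% below in this way, so these counts are near the background. The sets are unlike, since MT1E, 1 of the 2 below, and MT1M did not reach the level for testing given later in this paragraph. The median log2 difference of the 4 members found in every table was 0.28, and 0.011 over all tested loci. It is the midpoint of MT2A and MT1M, of which MT1M had under 1 implied fragment in every library, so nothing is read from it. Of these 4 members 2 passed the level needed for testing, which asks for 1 FPKM or more in 2 or more libraries, as did the MT1F and MT1X loci. A larger log2 difference than that of MT1F was seen at 4.67% of tested loci, than that of MT1G at 9.09%, than that of MT2A at 16.1% and than that of MT1X at 65.1%. The total FPKM was 1.27e+07 and 1.21e+07 in the CRYM libraries and 8.35e+06 and 7.92e+06 in the empty vector libraries. At loci of 60 bp, 1 read was worth 1613 to 2204 FPKM, and the part of such loci in the totals was not tested. When each library was rescaled to the same total FPKM, the median of all tested loci moved to -0.52. MT2A, MT1G, MT1F and MT1X moved to -0.22, -0.025, 0.34 and -0.70. Relative to that median, MT2A, MT1G and MT1F were still higher, by 0.29, 0.49 and 0.86, and MT1X lower, at -0.18. Under quantile normalization MT2A, MT1G, MT1F and MT1X stood at 0.54, 0.62, 0.80 and -0.056. With each library divided by its median ratio to the locus means (median rescaling), they stood at 0.38, 0.56, 0.87 and -0.11.

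**Figure D2:**
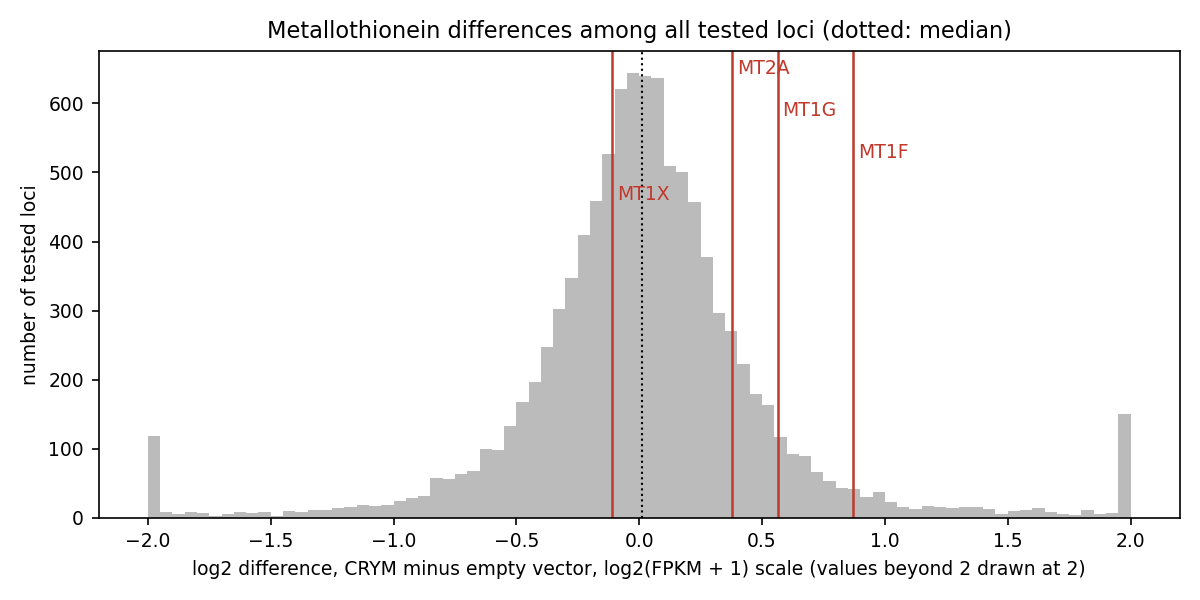
Number of tested loci (vertical axis) by log2 difference, CRYM minus empty vector, on the log2(FPKM + 1) scale (horizontal axis, with values beyond 2 drawn at 2), with the median of all tested loci dotted at 0.011. Red lines mark MT2A at 0.38, MT1G at 0.56, MT1F at 0.87 and MT1X at -0.11. On rescaling to the same total FPKM MT2A and MT1G turn negative, at -0.22 and -0.025, while under quantile normalization and median rescaling they stay positive.

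The order of the expressed members differed between the groups. In CRYM cells the order of FPKM was MT2A, MT1G, MT1X and MT1F, and in empty vector cells MT2A, MT1X, MT1G and MT1F. The ratio of MT1G to MT1X, which no scaling of a library can move, was 1.31 and 1.35 in the CRYM libraries and 0.903 and 0.750 in the empty vector libraries. The deposited intervals of these neighbours overlapped in empty vector library 1 and did not meet in the other 3 libraries. The ratio of MT1F to MT1X was 0.300 and 0.336 in the CRYM libraries and 0.154 and 0.140 in the empty vector libraries. MT2A to MT1X stood at 5.06 and 5.68 in CRYM cells and at 3.64 and 3.97 in empty vector cells. MT2A to MT1G overlapped between groups, at 3.86 and 4.20 in CRYM cells and 4.04 and 5.30 in empty vector cells.

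Summed over the 6 loci, metallothionein FPKM was 247.6 and 257.8 in the CRYM libraries and 195.4 and 199.6 in the empty vector libraries. MT2A made up 65.9% and 67.9% of this sum in CRYM cells and 63.7% and 67.7% in empty vector cells. MT1X made up 13.0% and 11.9% in CRYM cells and 17.5% and 17.0% in empty vector cells. The sum thus rested mainly on MT2A in every library.

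If each deposited bound lies 2 SD of counting error from the value, the bounds imply a number of fragments. At the depth of empty vector library 1, MT2A had 1936 and 1724 implied fragments in CRYM cells and 1447 and 1408 in empty vector cells, a ratio of 1.28. MT1G had 455.1 and 436.9 in CRYM cells and 318.7 and 290.0 in empty vector cells, a ratio of 1.47. MT1F had 225.1 and 250.1 in CRYM cells and 119.3 and 109.9 in empty vector cells, a ratio of 2.07. For these 3 genes the implied fragments gave nearly the same ratio as the FPKM. They are computed from that FPKM and its bound, so this is not a second measurement. MT1X had 535.9 and 484.0 in CRYM cells and 509.2 and 486.0 in empty vector cells, a ratio of 1.02 with overlapping groups, so that its lower FPKM was not matched by fewer implied fragments. Implied fragments did not follow FPKM at every locus. Before scaling they lay between 1712 and 2234 at GPX1, TXN, CAT, HOXB13 and SPDEF, whose FPKM ran between 46.8 and 227.7. MT2A, at 1447 to 1847 before scaling, came close to that range, so its implied ratio carries less weight than those of MT1G and MT1F.

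**Figure D3:**
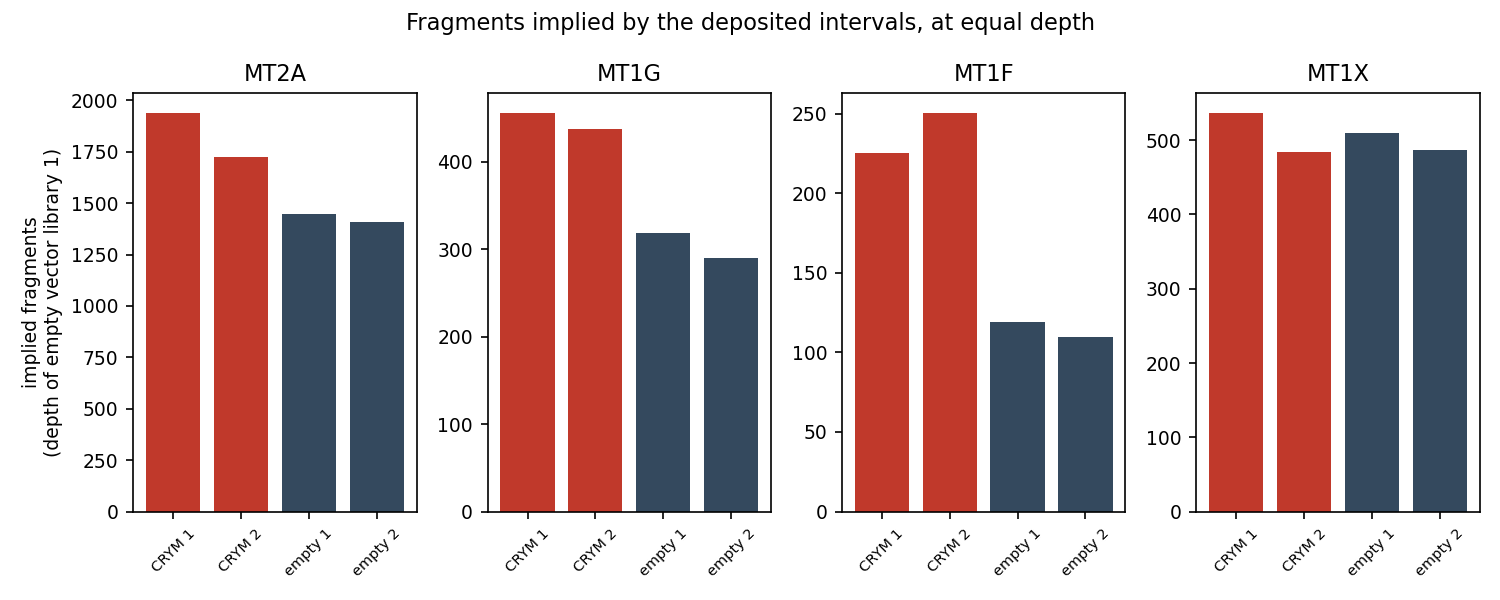
Fragments implied by the deposited intervals, scaled to the depth of empty vector library 1 (vertical axes, from 0), in the CRYM libraries (red, left) and the empty vector libraries (dark blue, right), 1 bar per library. MT2A, MT1G and MT1F have taller bars in CRYM cells, at 1.28, 1.47 and 2.07 times the empty vector mean, and the bars of MT1X overlap between groups.

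Metallothionein transcripts resemble each other, and reads here were 50 bases long. Over the transcripts of GENCODE v29, 3.02% of the 50-base stretches of MT2A and 1.22% of those of MT1F also occur exactly in a transcript of another gene. The share was 16.5% for MT1G, mostly with MT1H and MT1X, and 18.3% for MT1X, where 273 of 341 shared stretches lie in AC026461.1. MT1E shared 7.10% and MT1M 9.87%. AC026461.1 overlaps MT1X on the same strand, so these 273 stretches, 14.6% of those of MT1X, may be the same bases of the genome. With MT1G, MT1X shared 2.73% of its stretches. The sources used here do not say how reads from shared stretches were divided. Of the expressed members, this leaves MT1G the most uncertain with respect to genes elsewhere in the cluster.

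The other joined loci between the members were mostly low or at 0, apart from MT1L at 55.8 FPKM in CRYM library 1. The interval of that value ran from 0 to 215.2 and implied 0.490 fragments. The pseudogene MT1DP, whose rows did not join, had 10.2 and 24.8 FPKM in the CRYM libraries and 5.45 and 7.83 FPKM in the empty vector libraries, with overlapping intervals. MT3, the metallothionein known from brain, was identified by its order and its identical length in GENCODE v29 and had 1.39 and 1.35 FPKM in the CRYM libraries and 1.16 and 1.01 FPKM in the empty vector libraries, without passing (limma adjusted p = 0.163), and its log2 difference of 0.19 was -0.15 on rescaling to the same total. MT1A had 0.227 and 0.122 FPKM in CRYM cells and 0 and 0.0605 FPKM in empty vector cells, below the level for testing. MT4, known from squamous epithelium, and MT1JP, a pseudogene, were listed at 0 in all 4 libraries. Of the genes flanking the cluster, BBS2, a part of the BBSome of cilia, was identified in the same way as MT3. It had 24.1 and 20.5 FPKM in CRYM cells and 20.5 and 20.9 FPKM in empty vector cells (limma adjusted p = 0.478). BBS2 was called lower on rescaling to the same total. NUP93, a nuclear pore protein, taken from its order alone, had 57.5 and 54.8 FPKM in CRYM cells and 66.2 and 62.7 FPKM in empty vector cells, and did not pass (limma adjusted p = 0.0619). On rescaling to the same total NUP93 was called lower, with a log2 difference of -0.79 (limma adjusted p = 0.00316).

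**Figure D4:**
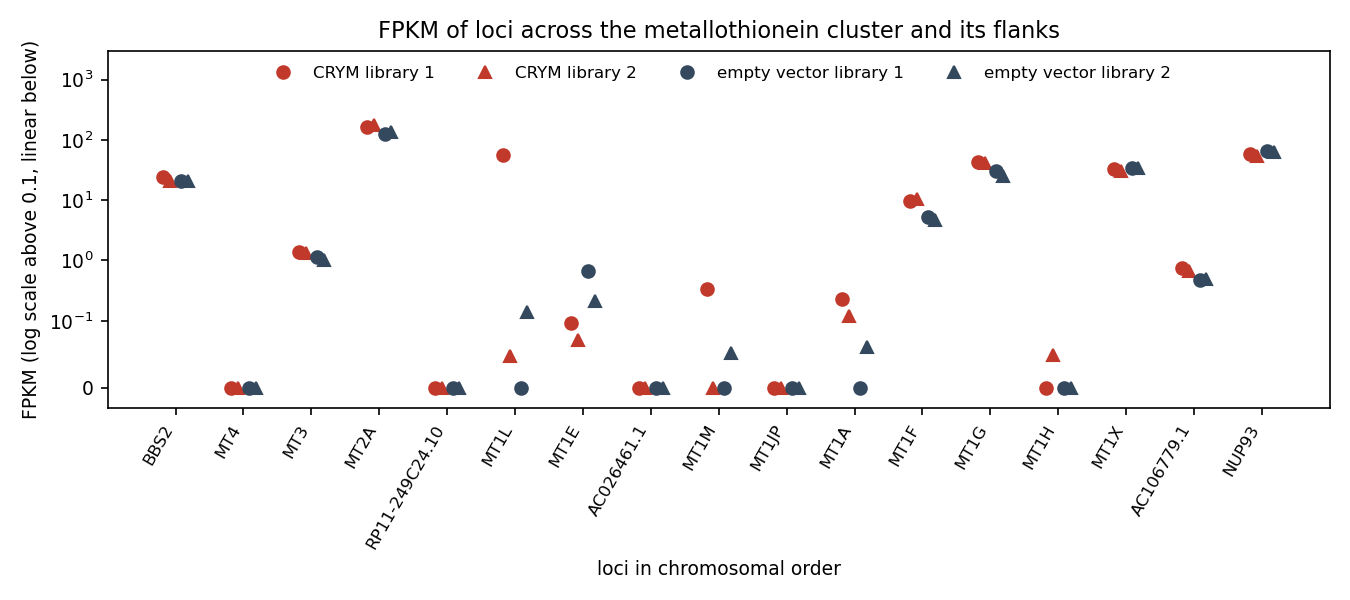
FPKM (vertical axis, logarithmic above 0.1 and linear below) of loci in chromosomal order from BBS2 to NUP93. The loci are named by symbol or from GENCODE v29. The CRYM libraries are in red to the left of the empty vector libraries in dark blue. MT1DP is not drawn. Of the metallothionein loci drawn, MT2A, MT1F, MT1G and MT1X are above 2 FPKM in all 4 libraries. MT1L reaches 55.8 in CRYM library 1 alone, with an interval of 0 to 215.2 that implies 0.490 fragments. MT4 and MT1JP are at 0. So are RP11-249C24.10, a lincRNA, and AC026461.1, neither of which bears a metallothionein symbol.

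Pseudogenes elsewhere in the genome share sequence with the members. MT1P1 on chromosome 9, which shares stretches with MT1G, MT2A and MT1X, had 1.70 and 2.70 FPKM in CRYM cells and 0 and 0.675 FPKM in empty vector cells (limma adjusted p = 0.0835). These values rest on 1.99 and 3.996 implied fragments in CRYM cells, against 0 and 1 in empty vector cells. MT1XP1 on chromosome 1, whose shared stretches are mainly with MT1X and MT1G, had 0.734 and 0 FPKM in CRYM cells and 2.05 and 1.82 FPKM in empty vector cells (limma adjusted p = 0.0880) and no more than 3 implied fragments in a library. MT2P1 on chromosome 4, a copy of MT2A, had 0.896 and 3.39 FPKM in CRYM cells and was listed at 0 in empty vector cells, and it was below the level for testing. Of the 15 other metallothionein genes and pseudogenes listed, 10 have a name in the joined tables. Of these, 2 were tested, MT1P1 and MT1XP1, and 0 passed limma, against the 15.7% of tested loci called higher and 17.7% called lower. Each of the 2 reached the level for testing only through the group where it was higher, so nothing is read from its p-value. MT3, also among the 15, has no symbol there and was tested at the locus identified above, without passing.

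Other genes of metal handling were mostly without a symbol in these tables. SLC30A1, the zinc exporter that MTF1 also induces, was the 1 tested member of 24 genes of metal sensing and zinc transport. It had 5.58 and 5.48 FPKM in the CRYM libraries and 4.21 and 4.63 FPKM in the empty vector libraries, with both CRYM values above. Its log2 difference of 0.27 (SE 0.0614) did not pass (limma adjusted p = 0.0573), and it was negative, at -0.23, on rescaling to the same total. Neither MTF1 itself nor any other zinc transporter than SLC39A2, at 0.0927 to 0.118 FPKM, has a name in the joined tables. Of 14 genes of copper handling, only SLC31A2 is named, at 0 in all libraries.

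FTL, the light chain of the iron store ferritin, was the 1 tested member of 15 iron genes and was higher in CRYM cells. It had 495.4 and 507.5 FPKM in CRYM cells and 373.4 and 388.4 FPKM in empty vector cells, a 1.32-fold difference (log2 difference 0.40, SE 0.0327, limma adjusted p = 0.0121). It was negative and not past on rescaling to the same total. Of 22 genes of oxidative stress and glutathione, 3 were tested, of which 1 rose and 2 fell, with a median log2 difference of -0.22, against 15.7% of all tested loci called higher and 17.7% called lower. CAT, the catalase that breaks down hydrogen peroxide, had 63.2 FPKM in each CRYM library and 54.3 and 53.7 FPKM in the empty vector libraries (log2 difference 0.22, limma adjusted p = 0.0154), and was called lower on rescaling to the same total. GPX1, a glutathione peroxidase, had 119.7 and 123.7 FPKM in CRYM cells and 157.7 and 151.7 FPKM in empty vector cells (log2 difference -0.34, limma adjusted p = 0.0162). TXN, the thioredoxin that reduces disulfides, had 193.4 and 196.5 FPKM in CRYM cells and 227.7 and 226.2 FPKM in empty vector cells (log2 difference -0.22, limma adjusted p = 0.0152). GPX1 and TXN lost the call under quantile normalization. By implied fragments at equal depth the CRYM to empty vector ratio was 1.06 at each, against FPKM ratios of 0.787 for GPX1 and 0.859 for TXN. The groups overlapped in these fragments, at 2131 and 1773 against 1954 and 1727 for GPX1, and 2081 and 1737 against 1900 and 1687 for TXN. Before scaling, both genes lay in the narrow range of implied fragments given above, so no direction is read from these ratios.

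Of 12 genes of the glucocorticoid response, the receptor included, 3 were tested, 0 rose and 2 fell, with a median log2 difference of -0.59, beside the same shares of 15.7% higher and 17.7% lower over all tested loci. CEBPB, a transcription factor of the C/EBP family, had 12.0 and 13.7 FPKM in CRYM cells and 19.2 and 22.0 FPKM in empty vector cells (log2 difference -0.64, limma adjusted p = 0.0331). CEBPD of the same family had 3.01 and 3.49 FPKM in CRYM cells and 5.56 and 5.20 FPKM in empty vector cells (log2 difference -0.59, limma adjusted p = 0.0266). Both lost the call without the filter on low FPKM. KLF9 had 16.6 and 13.3 FPKM in CRYM cells and 19.7 and 20.2 FPKM in empty vector cells and did not pass (limma adjusted p = 0.0997).

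Among 797 tested protein-coding loci with a name, the 5 whose pattern over the 4 libraries was nearest to the mean pattern of the 4 members found in every table were NUDT11, IER3, CHML, AL139147.1 and RNF5. The likeness is the root mean square distance of their centred log2(FPKM + 1) values, 0.0253 for NUDT11 and 0.0346 for RNF5. The mean pattern includes MT1E and MT1M, which were near the floor, and leaves out the MT1F and MT1X loci. NUDT11 had a log2 difference of 0.18, against 0.38 at MT2A and 0.56 at MT1G, so nothing is read from the likeness. IER3, an early response gene, had 4.92 and 4.39 FPKM in CRYM cells and 3.98 and 3.65 FPKM in empty vector cells.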

How the data were processed

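RNA sequencing was run on 4 libraries, with single reads of 50 bp from a stranded mRNA kit, per the labels' protocols. The submitters' processing notes name Cufflinks 2.2.1, Cuffdiff, TopHat2 2.1.1 and Bowtie2 2.2.9, beside hg19 and GRCh37, without roles. The authors deposited FPKM with bounds and a status, 1 table per library, per the file headers. The sources used here do not say whether quantification used the strand.

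Tables were joined by identical position, and 27 identifiers at several positions were summed. A locus was named where any table gives its symbol. Several loci of the cluster and its flanks without a symbol were named by order in GENCODE v29, with identical length except at MT1X and NUP93. The 10091 loci with status OK throughout and 1 FPKM or more in 2 or more libraries were tested in R 4.3.3 by a two-sided limma 3.58.1 fit with variance trend to log2(FPKM + 1), and Benjamini-Hochberg adjustment. Log2 differences on this scale understate changes of low genes. The fit was checked on simulated data for its mean estimates only, so the check does not bear on the rate of false calls. Positions count from 1. Relative depth came from values at loci of 60 to 62 bp, where all were whole multiples (within 0.02) of 1 read; absolute depth is unknown. The sources used here do not say which errors the deposited intervals cover, and a p-value here reflects only how these 4 libraries vary, which may be technical.

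Members and lists were chosen with earlier results of these data known. The genes named are the members, CRYM, named loci within 100 kb of the cluster, up to 4 called genes of each list, or where none passed the 2 highest, and 5 alike loci; MT1XP1, MT2P1 and KLF9 were named after their values were seen, and marker genes come from their lists. Shared stretches and promoters used GENCODE v29 and RefSeq with Python 3.11.15.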

Additional observations from a re-analysis of the deposited data

Results flagged for a closer look

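MT1DP, a metallothionein pseudogene in the cluster (hg19 chromosome 16, 56677617 to 56678698), entered no comparison, because its row in CRYM library 2 starts 1 base earlier and has no symbol. It had 10.2 and 24.8 FPKM in the CRYM libraries and 5.45 and 7.83 FPKM in the empty vector libraries, a 2.63-fold difference of the means that was not tested. The deposited bounds imply 10.1 and 11.6 fragments in CRYM cells and 3.06 and 9.31 in empty vector cells. At equal depth these were 12.0 and 10.8 in CRYM cells and 3.06 and 8.09 in empty vector cells. The CRYM libraries thus differed in FPKM far more than in implied fragments. The bounds of each CRYM library, 3.79 to 16.6 and 10.2 to 39.3, overlap those of each empty vector library, 0 to 11.7 and 2.70 to 13.0.

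MT1L, another pseudogene of the cluster, did not reach the level for testing and was at 55.8 FPKM in CRYM library 1 but at 0.0468 in CRYM library 2 and at 0 and 0.137 in the empty vector libraries. The bounds in CRYM library 1 were 0 and 215.2, which imply 0.490 fragments.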

How the results depend on the processing

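Rescaling each library to the same total FPKM gave 297 loci higher and 6257 lower and reversed several directions: the members' median log2 difference was -0.12, MT2A stood at -0.22, MT1G at -0.025, FTL at -0.21, CAT at -0.37 and BBS2 at -0.48, while NUP93 gained a call at -0.79, and the cause was not tested. Under quantile normalization MT2A and MT1G stood at 0.54 and 0.62, and under median rescaling at 0.38 and 0.56. With a pseudocount of 0.1 the members' median was 0.48, and the cause was not tested. By implied fragments at equal depth MT1X was at 0.034. Testing all 26476 loci, low ones included, gave 788 higher and 1082 lower. With the replicate block the limma count was 0 higher and 0 lower, with 3819 loci at an unadjusted p under 0.05, and FTL, CAT, GPX1, TXN, CEBPB and CEBPD lost their calls. The numbers share no stated source, and libraries with the same number moved together only weakly (r = 0.036 across loci). Leaving out any 1 library also gave 0 higher and 0 lower; the lone library is then assumed to vary like the other group, with fewer degrees of freedom by construction. In those fits the members' median was 0.20 to 0.36. The choice of the 6 loci in place of 4 members, added after the data were seen, left the median at 0.28. As reported, that median is the midpoint of MT2A and MT1M, and nothing is read from it. At MT1E and MT1M, with under 7 implied fragments in each library, depth limits any comparison.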
